A study of Chlorocebus sabaeus with 18 samples.

Results

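The 143 genes described here had their highest level in COS-7 cells that overexpressed TRA2A. A gene was kept when its mean normalised count over the 3 overexpressing libraries (GFP_TRA) was at least 50, and at least 25% above the highest mean among the 4 other groups with counts. They were 143 of the 52560 single genes in the deposited table, of which 12315 had a GFP_TRA mean of 50 or more. A gene's normalised count is the sum over its exon bins, the pieces into which its exons were cut, after the authors' scaling of each library. Below, the ratio of a gene is its GFP_TRA mean over the highest other group mean, and rank 1 is the largest ratio. The choice used the gene sums of all 5 groups, so the genes were chosen by the GFP_TRA values themselves, which are given as a description, with no test.

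COS-7 is a fibroblast-like kidney line of the African green monkey that carries the SV40 large T antigen. RNA was sequenced from 6 groups of 3 samples: cells overexpressing TRA2A (GFP_TRA), cells with TRA2A knocked down (siTRA), cells given 60 CGG repeats placed in the FMR1 leader together with overexpression (CGG_TRA) or with knockdown (CGG_siTRA), cells given the repeats alone (CGG), and control cells (CTL). Counts were used for 15 libraries, and for CGG_TRA the authors' splicing table alone was used. The titles of the GFP_TRA samples name GFP, and no group is labelled as GFP without TRA2A. An effect of GFP therefore cannot be told apart from one of TRA2A in GFP_TRA. No group is labelled as an empty vector or a control siRNA, and the labels give no dose, time or vector. Transfection itself therefore cannot be told apart from a treatment set against CTL. The labels do not say that samples of a group came from separate cultures, so p-values measure the spread between these samples, which may be technical. Libraries are lettered a, b and c, because the numbers of the count columns could not be tied to those of the sample titles. Some CGG_siTRA titles name a round that no count column carries, so a difference between rounds was not tested.

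TRA2A is a nuclear RNA-binding protein related to the SR proteins, with arginine- and serine-rich ends on either side of an RNA recognition motif. It binds GA-rich sequences in exons and favours their inclusion in the mature mRNA. TRA2 proteins also act on their own transcripts, which contain a so-called poison exon that leads to decay of the message when it is included. CGG repeats in the leader of FMR1 are the premutation of fragile X-associated tremor/ataxia syndrome, and RNA-binding proteins gather on the repeat RNA.

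The files pair no gene ID with a name, and none of the 52560 IDs matched the reference table of the monkey, so genes are given by their position on the human assembly GRCh38 or by rank. The exception is ENSG00000164548.10 (chr7:23504780-23532041, minus strand), which is taken here as TRA2A because no other gene of the 143 was as far above the other groups in GFP_TRA, and because it was low in both knockdown groups. That reading uses the values, so it is no independent check of the labels. For 52 genes the files used here give no position, and 51 of these consist of 1 bin. The pathway lists and the marker genes of the kidney line could not be looked up for the same reason.

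Sums of reads over bins ran between 123599617 and 207475255 per library. The authors' scaling left totals of 178450000 to 183168000 in GFP_TRA and of 152200000 to 171559000 in the other libraries, so the scaled GFP_TRA libraries were larger throughout. With TMM scaling, which centres the bulk of genes, 68 of the 143 genes still met the rule and 0 others joined them. How much of the remaining 75 genes' excess is the scaling was not tested. Library b of siTRA had the lowest total and the lowest mean correlation with the other libraries across genes (0.978, against 0.987 to 0.990 for the others). In RNA from whole cultures, fewer cells that express a gene and less RNA per cell cannot be told apart.

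TRA2A stood far above every other member. It had normalised counts of 204942, 187106 and 221793 in GFP_TRA libraries a to c, of 3709, 4916 and 3117 in siTRA, of 4020, 4396 and 4408 in CGG_siTRA, of 17032, 15675 and 16050 in CGG, and of 17143, 17234 and 16912 in CTL. Each GFP_TRA library was above all others, each knockdown library was below all CGG and CTL libraries, and CGG and CTL overlapped. The ratio was 11.97, and the next ratio among the 143 genes was 2.49. TRA2A fell in siTRA against CTL by 2.09 on the log2 scale (SE 0.10, edgeR's quasi-likelihood test, Benjamini-Hochberg adjusted p = 2.49e-10) and in CGG_siTRA against CGG by 1.83 (SE 0.10, adjusted p = 9.28e-09). Its high level in GFP_TRA and low level in the knockdown groups were the grounds for the name. These p-values are therefore no independent check of the knockdown.

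The bins of TRA2A did not share this excess evenly. Of its 32 bins, 27 had a CTL mean of 10 or more; 16 of these were 6.07 to 56.8 times as high in GFP_TRA as in CTL, and the other 11 lay between 0.526 and 1.24 times the CTL mean. The 6 most abundant bins, between 23507421 and 23521840, held 85.2% of the excess and were 11.9 to 16.04 times as high. One of them (23512894 to 23513024) had 36427, 32852 and 40249 normalised counts in GFP_TRA, 478, 589 and 432 in siTRA, and 2317, 2271 and 2242 in CTL. GFP_TRA, siTRA and CTL did not overlap in that bin.

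The block of 6 bins from 23521841 to 23531680 behaved differently in the same libraries. These bins were at 0.526 to 0.917 times the CTL mean in GFP_TRA. The bin with the highest CTL mean among them, 23522132 to 23522353, had 240, 259 and 279 normalised counts in GFP_TRA, 141, 189 and 87.9 in siTRA, and 292, 309 and 295 in CTL. All 3 GFP_TRA libraries lay below all CTL libraries there, and siTRA lay lower still. In siTRA the block kept 0.403 to 0.848 of the CTL mean, while the 6 most abundant bins kept 0.189 to 0.220. Over all 16 bins that were far higher in GFP_TRA, the share kept in siTRA was 0.146 to 0.970, which overlaps the block.

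**Figure D1:**
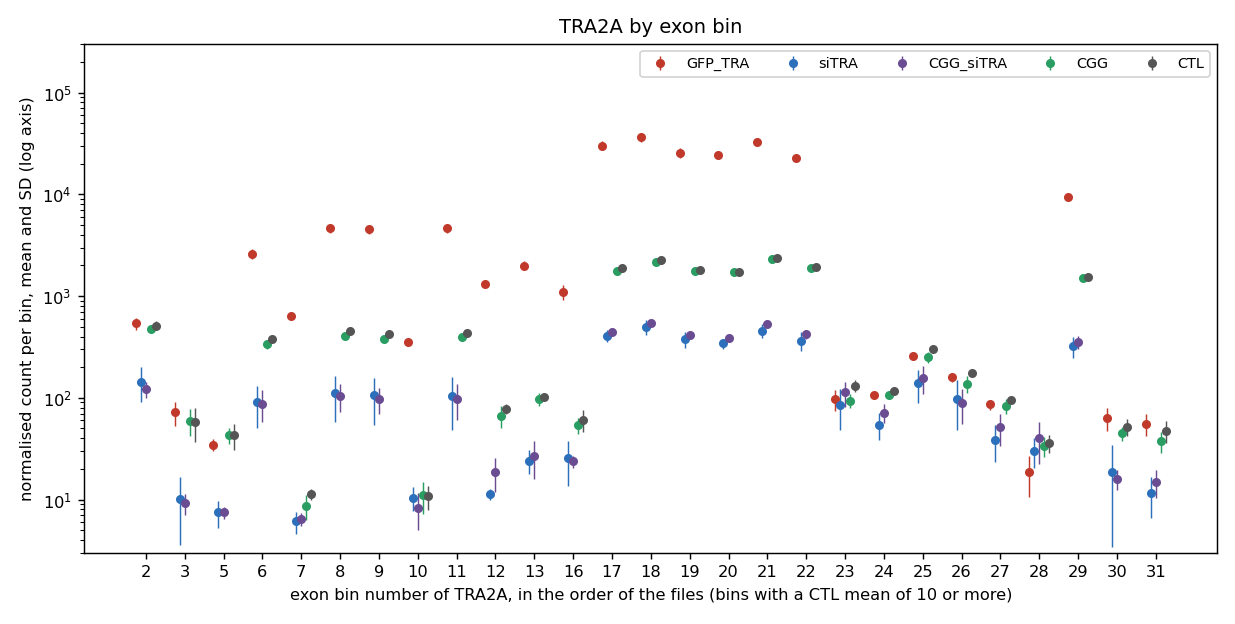
Normalised count (log axis) of each TRA2A exon bin with a CTL mean of 10 or more, by bin number in the order of the files; points are means and bars SD over 3 libraries for GFP_TRA, siTRA, CGG_siTRA, CGG and CTL. GFP_TRA is far above CTL in the plotted bins 6 to 22 and in bin 29, and its mean is below that of CTL in bins 23 to 28.

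The authors' DEXSeq table, which tests whether a bin takes a larger or smaller part of its gene, was used for siTRA against CTL, a comparison without GFP_TRA. Of the bins of TRA2A, 9 passed an adjusted p of 0.05 in the authors' deposited table. Relative use of bin 23522132 to 23522353 was higher in siTRA by 1.04 on the log2 scale (adjusted p = 7.62e-16 in the authors' deposited table), and that of bin 23521841 to 23522120 by 1.54 (adjusted p = 2.57e-06 in the authors' deposited table). Among these 9 bins the largest rise in use was outside the block, in the low bin 23505814 to 23505885 (10.4 normalised counts in siTRA and 10.7 in CTL), by 2.09 on the log2 scale (adjusted p = 2.52e-04 in the authors' deposited table). Use of the abundant bin 23521707 to 23521840 was lower in siTRA by a log2 of -0.25 in the authors' deposited table (adjusted p = 3.17e-05).

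The other 142 genes differed from TRA2A in size of effect: 73 of the 143 had a ratio under 1.3, 56 between 1.3 and 1.5, 11 between 1.5 and 2, and 3 had 2 or more. TMM scaling kept 9, 46, 10 and 3 of these bands. In 84 genes every GFP_TRA library was above all 12 others, against a background of 8.84% of the 12315 genes with a GFP_TRA mean of 50 or more; the rule chose on the same values, so nothing is read from that difference. GFP_TRA library b was the highest of the 3 in 71 genes, c in 48 and a in 24. All 143 genes passed the filter on low counts used for the tests, and did so also on the 12 libraries outside GFP_TRA alone.

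**Figure D2:**
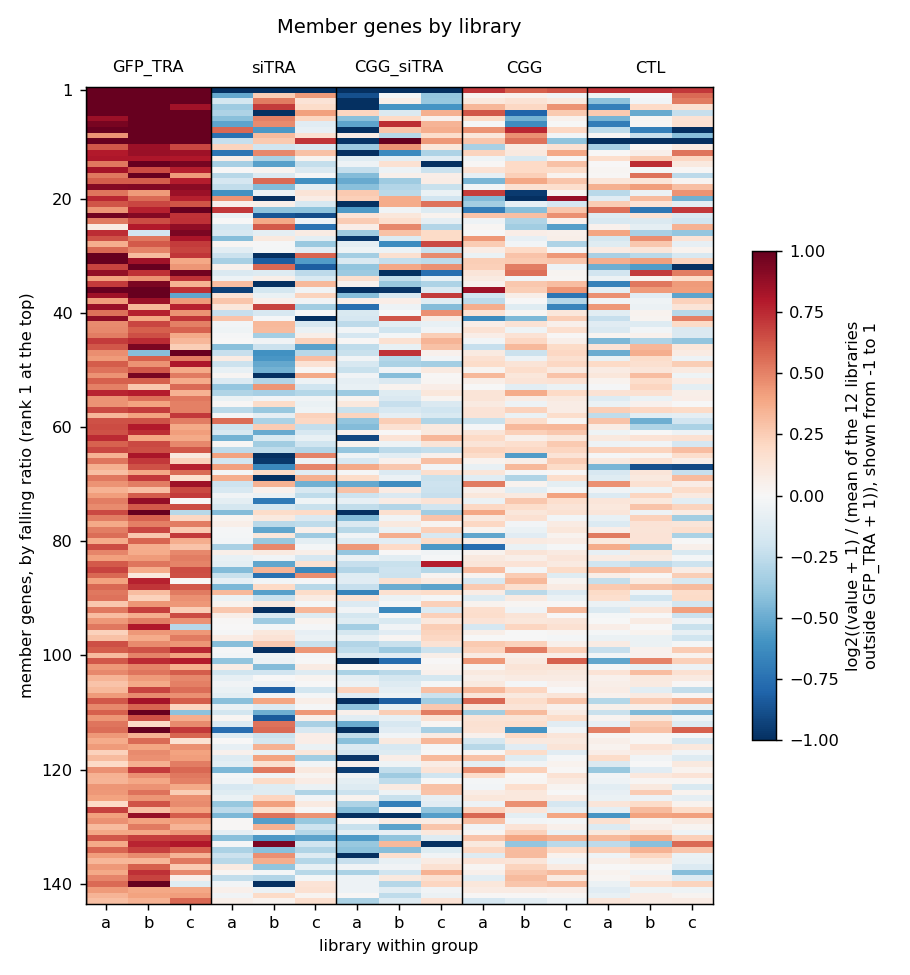
Each row is 1 of the 143 genes by falling ratio and each column 1 library, in the groups GFP_TRA, siTRA, CGG_siTRA, CGG and CTL; colour is log2 of the normalised count plus 1 over the mean of the 12 libraries outside GFP_TRA plus 1, shown from -1 to 1. By construction the GFP_TRA mean of each gene is above the other group means, so most entries of the GFP_TRA columns are red. Single GFP_TRA libraries can still be low, as library c at rank 37, with 23.6 normalised counts against a CTL mean of 34.1. The 12 other columns scatter around 0.

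Around the threshold the genes ran on without a gap. The 3 genes just inside had ratios of 1.25002 (rank 143, no position), 1.25164 (chr21:39174769-39183851) and 1.25201 (chr10:17228259-17237593). The 3 just outside had 1.24987 (chr3:33113979-33147773), 1.24882 (chr7:2354086-2380745) and 1.24869 (chr6:73394748-73417569).

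Of the 25 genes with the largest ratio, 10 consisted of a single bin and 15 had a position. ENSG00000199568.1, a single-bin gene at rank 2, had 262, 355 and 276 normalised counts in GFP_TRA, 72.5, 124 and 140 in siTRA, 55.9, 102 and 79.2 in CGG_siTRA, 107, 107 and 102 in CGG, and 101, 103 and 154 in CTL. All GFP_TRA libraries were above all others, and the other 4 groups overlapped. The single-bin genes at ranks 3, 4, 6 and 7 had GFP_TRA means of 326 ± 89.0, 525 ± 164, 301 ± 44.5 and 698 ± 122 (SD, n = 3), with ratios of 2.27, 1.98, 1.92 and 1.90. Library b held the highest value of GFP_TRA in each of these 5 genes.

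The largest ratios among genes with a position other than TRA2A were in lowly expressed genes. The gene at chr9:98288082-98709197 (rank 5) had 159, 144 and 142 normalised counts in GFP_TRA, 55.6, 31.2 and 91.8 in siTRA, 80.1, 62.1 and 88.4 in CGG_siTRA, 107, 39.04 and 82.9 in CGG, and 82.7, 48.3 and 58.5 in CTL. GFP_TRA did not overlap any other group, while CGG alone spanned most of the range of the rest. The gene at chr18:50795121-50819836 (rank 8) had 134, 124 and 117 in GFP_TRA, 72.2, 89.6 and 61.0 in CGG, and 44.0, 32.5 and 14.6 in CTL, so that these 3 groups did not overlap. It had 79.1, 35.1 and 49.8 in siTRA and 23.0, 64.3 and 68.1 in CGG_siTRA, and both of these groups overlapped CGG and CTL. GFP_TRA overlapped another group at chr12:95867048-95942974 (rank 9, ratio 1.64) and at chr19:12899082-12919276 (rank 10, ratio 1.63).

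Larger genes with close replicates followed at ranks 13 and 15. The gene at chr1:183186238-183244900 had 6191, 6187 and 6146 normalised counts in GFP_TRA, 3674, 2836 and 3587 in siTRA, 3250, 3296 and 3260 in CGG_siTRA, 3422, 3177 and 3546 in CGG, and 3964, 4233 and 4067 in CTL. CTL came next to GFP_TRA without overlap, and the other 3 groups overlapped. The gene at chr9:75890644-76362339 had 5894 ± 374 in GFP_TRA, 3411 ± 210 in siTRA, 3112 ± 228 in CGG_siTRA, 3950 ± 72.2 in CGG and 3511 ± 54.6 in CTL (SD, n = 3). Its GFP_TRA libraries were above all others.

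**Figure D3:**
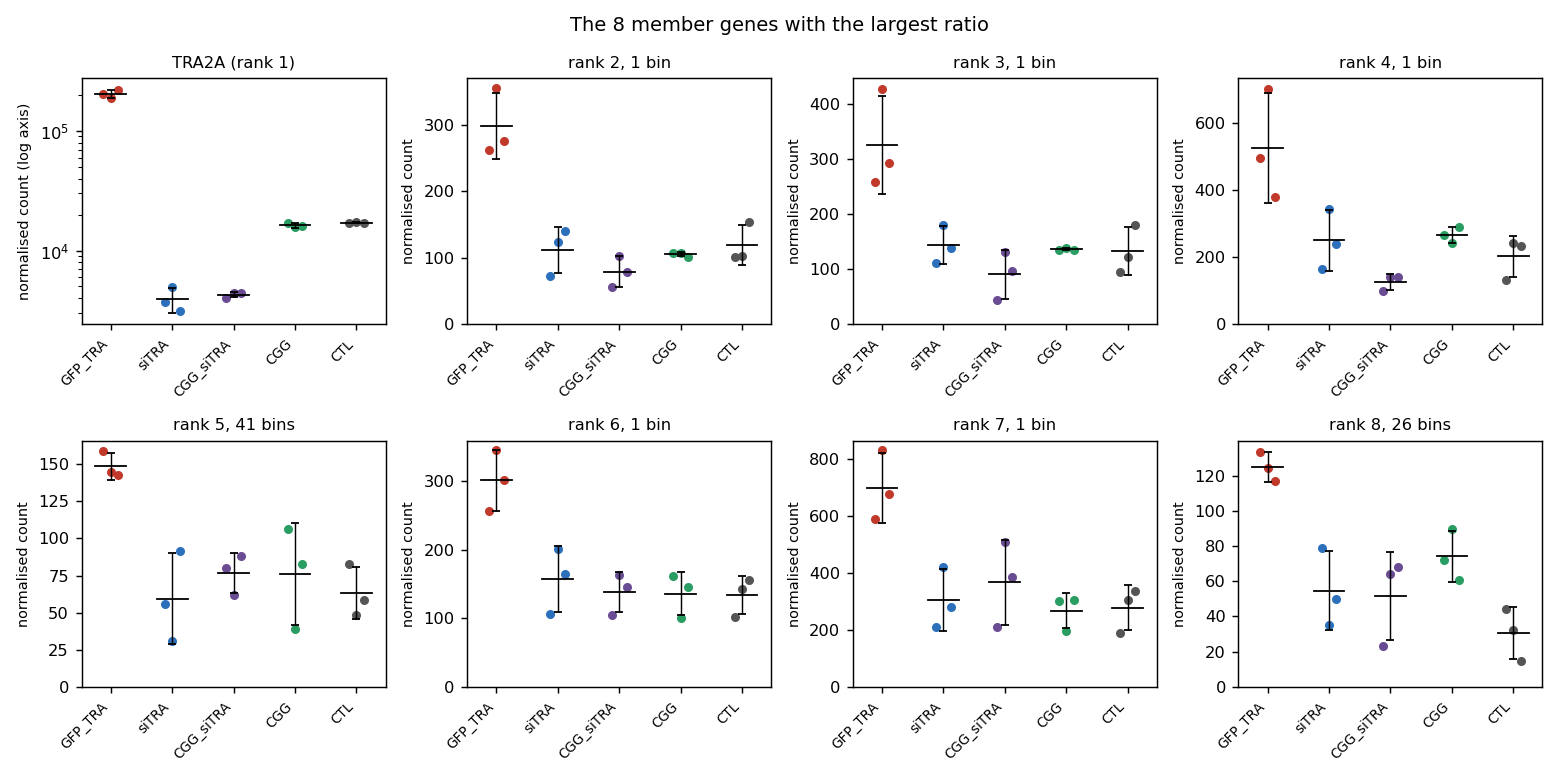
Normalised count of the 8 genes with the largest ratio in each library of GFP_TRA, siTRA, CGG_siTRA, CGG and CTL (points), with the mean and SD over 3 libraries (black); the axis is logarithmic for TRA2A and starts at 0 elsewhere. GFP_TRA is highest in every panel by construction, and the single-bin genes at ranks 2, 3, 4, 6 and 7 spread most within GFP_TRA.

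The 10 genes with the highest GFP_TRA mean were led by genes close to the threshold. At chr5:171387116-171411137, with the highest mean, GFP_TRA had 577421 ± 43595 normalised counts, CGG 452838 ± 18407 and CTL 456854 ± 11432 (SD, n = 3), a ratio of 1.26. At chr10:17228259-17237593 the GFP_TRA mean was 337349 ± 5150 and the highest other mean was that of CGG, 269447 ± 2101. GFP_TRA libraries were above all others in both genes. Of the 10 genes, 2 met the rule with TMM scaling, TRA2A and the gene at chr2:10439968 (GFP_TRA mean 60539).

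Among the 4 other groups the 143 genes were not evenly placed. The highest of these means was that of CGG in 65 genes, CTL in 43, CGG_siTRA in 23 and siTRA in 12, and the lowest was that of CGG_siTRA in 55, siTRA in 48, CTL in 26 and CGG in 14. These counts used the authors' scaling. No matching counts are given for all genes or with TMM scaling, so the part of the scaling in these places was not tested. The median gene stood at 65.0% of its GFP_TRA mean in siTRA, 67.5% in CGG_siTRA, 74.96% in CGG and 71.1% in CTL, where the median of all genes with a GFP_TRA mean of 50 or more was 93.4%, 89.4%, 95.7% and 96.5%. With TMM scaling the median log2 fold change of the 143 genes was 0.47 for GFP_TRA over CTL, 0.37 over CGG, 0.54 over siTRA and 0.42 over CGG_siTRA. With the authors' scaling it was 0.49 over CTL, 0.42 over CGG, 0.63 over siTRA and 0.56 over CGG_siTRA, so CTL and CGG_siTRA changed order. The authors' scaling put the median of all genes tested at 0.03, 0.05, 0.08 and 0.14 in these contrasts, and TMM within 0.01 of 0.

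The genes were small and low beside the rest. Single-bin genes were 51 of the 143 (35.7%), against 1298 of the other 12172 genes with a GFP_TRA mean of 50 or more (10.7%). The median GFP_TRA mean was 508 normalised counts, against 3021. Among single-bin genes it was 247 against 297, and among genes with a position 1706 against 3737. The 91 genes with a position had a median of 19 bins, 2968 bases in bins and a span of 18357 bases, against 24 bins, 4942 bases and 34254 bases in the others. The spread between libraries was also wider: the median coefficient of variation in GFP_TRA was 10.2% in the 143 genes and 6.64% over all genes with a GFP_TRA mean of 50 or more. No test was made of these differences. How far a rule on means of 3 libraries favours low or variable genes was not tested.

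The bins of a gene add up to the sum that the rule used, so their values describe where the excess lay and nothing more. In the 72 genes with at least 3 bins of a mean of 10 or more, GFP_TRA had the highest group mean in a median of 93.1% of bins, in all bins of 30 genes, and in no fewer than 57.1% in any gene. By the rule's own factor fewer bins stood out: 577 of the 1079 bins of these genes were at least 25% above the highest other group mean, under 50% of the bins in 30 genes and none in 1 gene. A single bin held over 50% of the excess in 8 genes, among them chr1:26169871-26170873 and chr7:100435282-100436565.

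On chromosome 1 the interval of 20 to 40 Mb held 9 of the 143 genes, which is 4.89% of its 184 genes with a GFP_TRA mean of 50 or more, against 0.831% of all such genes with a position. The median ratio there was 1.03 against 0.935. The interval was picked after the values were seen, 2 of the 9 genes met the rule with TMM scaling, and no test was made.

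Knockdown of TRA2A was the comparison set opposite to overexpression, and it did not involve the GFP_TRA libraries, although the rule capped the level of each group. In siTRA against CTL, 12 of the 143 genes (8.39%) fell and 5 (3.50%) rose at an adjusted p under 0.05 (edgeR). Of the 17526 genes and gene groups tested, 17.9% fell and 15.6% rose, so the 143 genes were called less often. At an unadjusted p under 0.05, 18 were lower and 10 higher (backgrounds 22% and 20.1%). In CGG_siTRA against CGG, 12 (8.39%) fell and 0 rose, against backgrounds of 5.23% and 3.37%. At an unadjusted p under 0.05, 21 were lower and 2 higher (backgrounds 10.8% and 9.79%). The median log2 change of the 143 genes was -0.03 and -0.04, beside -0.00 and 0.01 for all genes tested. With the authors' scaling factors 16 fell and 3 rose in siTRA against CTL (backgrounds 21.2% and 11.8%), and 17 fell and 0 rose in CGG_siTRA against CGG (backgrounds 11.5% and 1.67%).

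**Figure D4:**
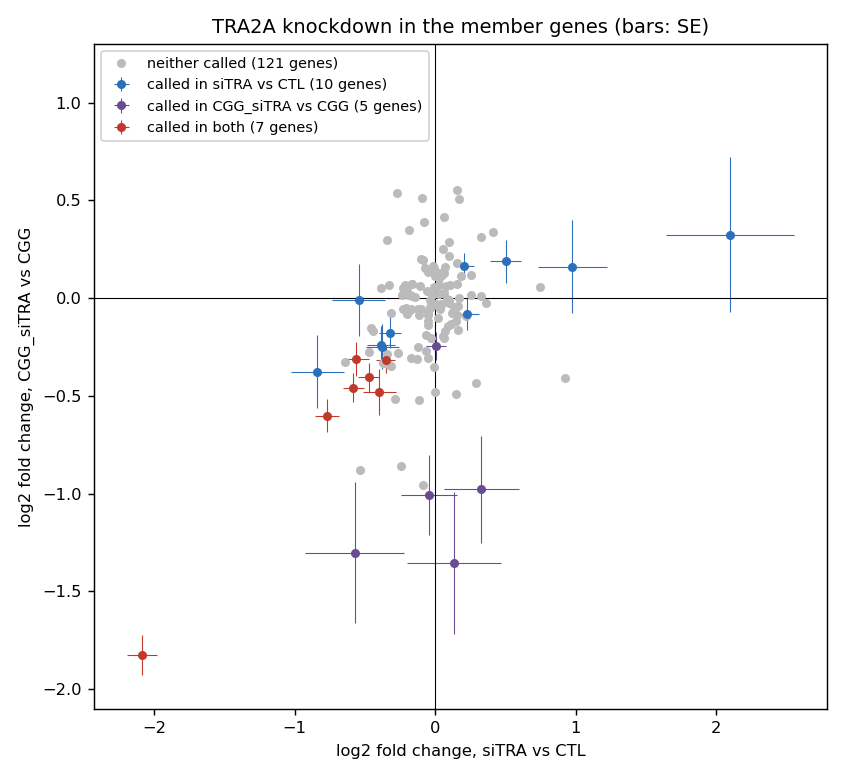
Log2 fold change of the 143 genes in siTRA vs CTL (horizontal) and CGG_siTRA vs CGG (vertical), with SE bars on called genes; colours show genes called at an adjusted p under 0.05 in both (7), in 1 of the comparisons (10 and 5) or in neither (121). TRA2A is alone at the lower left, the other 6 genes called in both lie between -0.77 and -0.31 on either axis, and most genes lie near 0.

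Besides TRA2A, 6 of the genes fell in both knockdown comparisons, 7 in all, where 3.35% of the genes tested did so. The largest fall was at chr5:178149460-178153967 (ENSG00000145912.8), with 12189, 12769 and 12838 normalised counts in GFP_TRA, 5931, 5305 and 5452 in siTRA, 5350, 5969 and 7237 in CGG_siTRA, 9650, 10366 and 10107 in CGG, and 9886, 10258 and 9333 in CTL. Overexpressing libraries were above, and knockdown libraries below, every CGG and CTL library. The gene was chosen for a high GFP_TRA mean and for both falls, so this order is a description. With TMM scaling its ratio was 1.22, under the rule's limit. Its log2 change was -0.77 (SE 0.08, edgeR adjusted p = 2.09e-06) in siTRA against CTL and -0.60 (SE 0.08, edgeR adjusted p = 1.28e-04) in CGG_siTRA against CGG.

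The gene at chr1:31259568-31296782 had 21189, 22748 and 21412 normalised counts in GFP_TRA, 11414, 10592 and 11541 in siTRA, 10668, 10541 and 13044 in CGG_siTRA, 16378, 17673 and 16320 in CGG, and 16835, 18066 and 17199 in CTL. Overexpressing libraries were again highest and knockdown libraries again lowest, without overlap with CGG or CTL, in a gene chosen the same way. Its log2 change was -0.58 (SE 0.07, edgeR adjusted p = 1.25e-05) in siTRA against CTL and -0.46 (SE 0.07, edgeR adjusted p = 5.69e-04) in CGG_siTRA against CGG.

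The gene at chr5:136975298-137499348, rank 18, had 7674, 7712 and 7608 normalised counts in GFP_TRA, 3422, 3019 and 3791 in siTRA, 3041, 3315 and 3494 in CGG_siTRA, 3994, 4510 and 4579 in CGG, and 5210, 5428 and 5014 in CTL. Here every CGG library was also below every CTL library, although CGG against CTL was not called, and GFP_TRA was above all. It fell by 0.56 on the log2 scale (SE 0.09, edgeR adjusted p = 9.55e-05) in siTRA against CTL and by 0.31 (SE 0.09, edgeR adjusted p = 0.0343) in CGG_siTRA against CGG. The second call was lost when CGG library b or c, or CGG_siTRA library a or b, was left out (adjusted p of 0.0902 to 0.155).

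In the further genes of this set GFP_TRA was again highest, as the rule required, and the knockdown groups were lowest. The single-bin gene at rank 64 had 1667 ± 28.0 normalised counts in GFP_TRA, 886 ± 11.96 in siTRA, 870 ± 46.2 in CGG_siTRA, 1236 ± 6.998 in CGG and 1272 ± 42.7 in CTL (SD, n = 3). The gene at chr17:15229777-15265319 fell by 0.35 and 0.32 on the log2 scale (edgeR adjusted p = 6.69e-04 and 0.00583), and the gene at chrX:119805311-119852998 fell by 0.40 and 0.48 (edgeR adjusted p = 0.0139 and 0.0141), in siTRA against CTL and in CGG_siTRA against CGG. The chrX gene lost the first call without siTRA library a or c, or with only siTRA and CTL in the fit (adjusted p of 0.0513 to 0.0852), and the second without CGG library a or CGG_siTRA library b or c (0.0573 to 0.0771). The chr17 gene lost the second call with the highest bin in place of the gene's sum (adjusted p = 0.0674).

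In all 7 genes, chosen for both falls, every siTRA library was below every CTL library and every CGG_siTRA library was below every CGG library. That held for 19 of the 143 genes and for 11.3% of all genes tested. Of the 7 genes, 5 met the rule also with TMM scaling; the exceptions were those at chr5:178149460-178153967 and chr1:31259568-31296782.

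**Figure D5:**
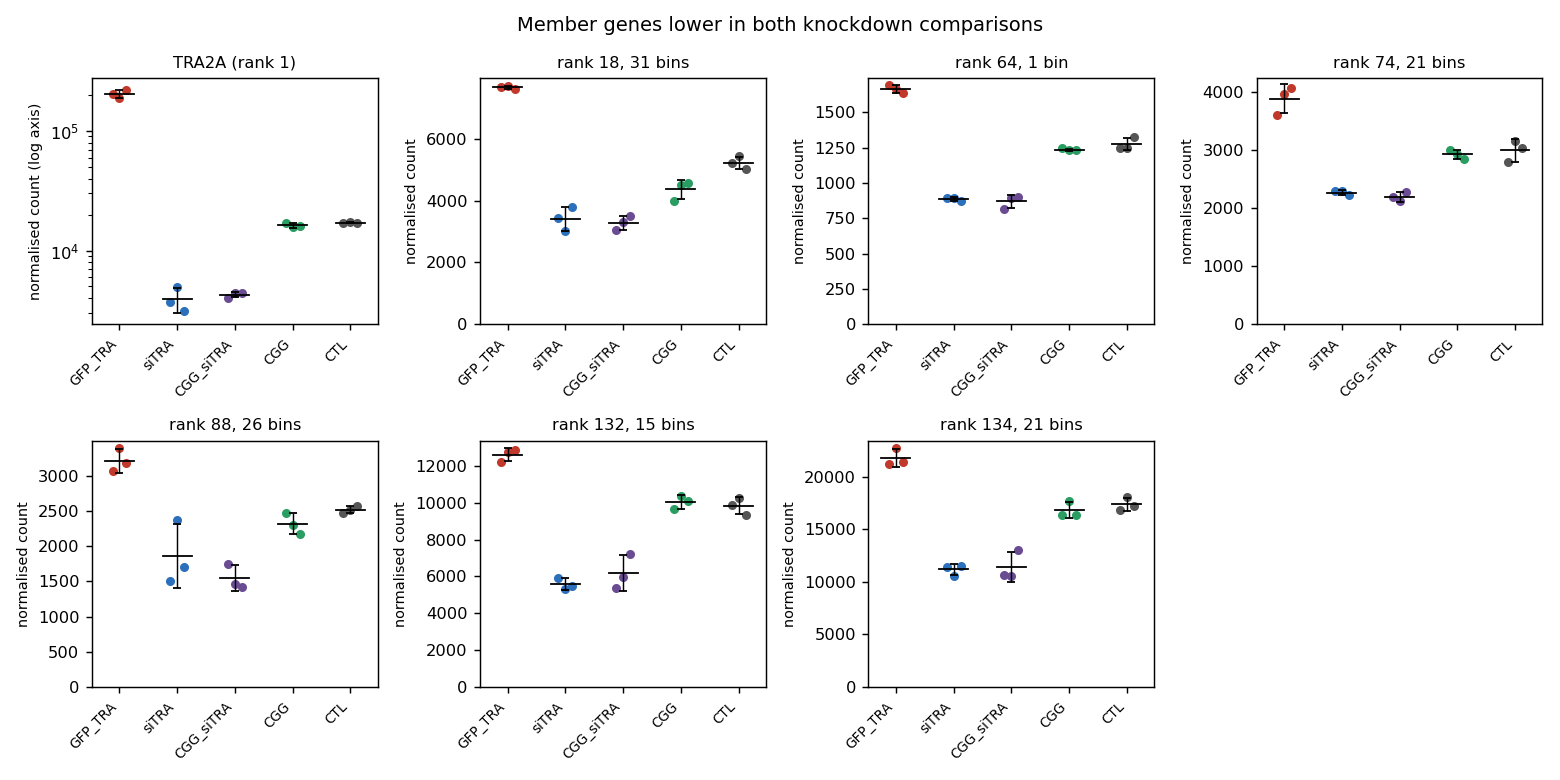
Normalised count of the 7 genes that fell in both knockdown comparisons in each library of GFP_TRA, siTRA, CGG_siTRA, CGG and CTL (points), with the mean and SD over 3 libraries (black); the axis is logarithmic for TRA2A and starts at 0 elsewhere. In every panel GFP_TRA is highest by construction, and siTRA and CGG_siTRA are lowest in genes that were chosen for falling in both comparisons.

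The remaining calls differed between the knockdown comparisons. In siTRA against CTL the gene at chr19:12899082-12919276, with 33.9, 48.1 and 66.4 normalised counts in siTRA against 12.9, 13.9 and 8.78 in CTL, rose by 2.10 on the log2 scale (SE 0.46, edgeR adjusted p = 0.00175). The other 4 genes that rose did so by 0.21 to 0.98, and the 5 further genes that fell changed by -0.84 to -0.32. The rise at chr6:4994732-5004063 lost its call under 15 alternatives, that at chr1:23691779-23696425 under 6, and that at chr11:392614-404908 with the highest bin. Among the falls, the gene at rank 46 lost its call under 5 alternatives and the gene at chr16:634427-636302 under 4. In CGG_siTRA against CGG, 4 of the 5 further genes that fell were single-bin genes without a position, at ranks 4, 36, 108 and 128, and they fell by 0.98, 1.302, 1.01 and 1.35 on the log2 scale. The remaining gene, at chr9:75890644-76362339, fell by 0.24 (SE 0.07, edgeR adjusted p = 0.0431) and lost its call under 13 alternatives. The rank 4 call was lost without any 1 of the 6 CGG and CGG_siTRA libraries (edgeR adjusted p of 0.0531 to 0.115). The rank 36 call was lost without CGG library a or c or CGG_siTRA library a or b, or with only the 2 groups in the fit (0.0660 to 0.135), and the rank 128 call without the same 4 libraries (0.0756 to 0.140). ENSG00000202538.1 (rank 108) had 780, 1034 and 1442 normalised counts in CGG_siTRA against 2734, 2064 and 2217 in CGG, which do not overlap (SE 0.20, edgeR adjusted p = 0.00372).

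Cells given the repeats were then set against CTL cells. In CGG against CTL, 4 rose and 0 fell at an adjusted p under 0.05 (edgeR), against backgrounds of 9.75% and 10.7%. At an unadjusted p under 0.05, 15 were higher and 2 lower (backgrounds 15.9% and 16.5%). The gene at chr19:12899082-12919276 had 48.6, 58.6 and 30.1 normalised counts in CGG against 12.9, 13.9 and 8.78 in CTL, and the gene at chr18:50795121-50819836 also rose. Their log2 changes were 1.93 (SE 0.46, edgeR adjusted p = 0.00594) and 1.303 (SE 0.40, edgeR adjusted p = 0.0285). The chr18 call was lost without CGG library a or b or CTL library b or c, or with the highest bin in place of the sum (edgeR adjusted p of 0.0615 to 0.135). The other 2 genes, at chr11:392614-404908 and chr10:132104671-132184809, rose by 0.48 and 0.91, and like the chr19 gene they also rose in siTRA against CTL, a comparison with the same CTL libraries. The chr10 call in CGG against CTL was lost without CGG library b or CTL library b or c, or with the highest bin in place of the sum (edgeR adjusted p of 0.0522 to 0.0608), and the chr11 call with the highest bin (0.0502). Without siTRA library b in the fit, 11 rose and 2 fell (backgrounds 13.6% and 13.8%), and with CGG and CTL alone in the fit, 23 rose and 3 fell (backgrounds 18.3% and 19.3%).

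Both groups of the next comparison carried the knockdown. In CGG_siTRA against siTRA 0 genes rose and 0 fell (edgeR), against backgrounds of 0.0171% and 0%. At an unadjusted p under 0.05, 15 were higher and 4 lower (backgrounds 9.52% and 7.36%), and DESeq2 called 2 higher and 1 lower (backgrounds 1.92% and 1.77% of the 11749 features it gave an adjusted p).

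Splicing in the CGG_TRA libraries, which the rule did not use, could be followed through the authors' EventPointer tables, which do not give the depth behind an event. They held 26 events in 16 of the 143 genes: 11 cassette exons, 7 complex events, 3 alternative last exons, 2 alternative first exons, 2 alternative 3' splice sites and 1 alternative 5' splice site. In CGG_TRA against CGG, 0 of the 26 events passed a p of 0.05 adjusted here over all 6311 events (background 0.412%), and 2 had an unadjusted p under 0.05 (background 8.13%). In CGG_TRA against CGG_siTRA, 0 passed (background 0.713%) and 1 had an unadjusted p under 0.05 (background 8.87%).

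The event with the lowest p in CGG_TRA against CGG was a cassette exon at chr7:100435533-100435848, inside the gene at chr7:100435282-100436565. In the authors' deposited table its fraction spliced in differed by -0.0858 in CGG_TRA against CGG (p = 6.85e-04). Adjusted here over all events by the Benjamini-Hochberg method, that p was 0.0936. The fraction differed by -0.0589 in CGG_TRA against CGG_siTRA (unadjusted p = 0.252) and by -0.107 in GFP_TRA against CTL in the authors' deposited tables. The event with an unadjusted p under 0.05 in CGG_TRA against CGG_siTRA was another cassette exon, at chr10:101782597-101783273 (p = 0.00538 in the authors' deposited table). The tables do not state a direction; read as the first group minus the second, the sign matched the bin counts for 9 of 9 larger cassette events in GFP_TRA against CTL, 13 of 13 in CGG against CTL and 0 of 1 in CGG_siTRA against siTRA.

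Bin counts of this exon gave a further view. These bins are part of the sum that the rule used, so their GFP_TRA values are a description. The bin 100435631 to 100435767 had 56.8%, 57.3% and 48.6% of the normalised count of the bin 100435359 to 100435533 beside it in GFP_TRA, 54.9%, 55.4% and 63.3% in siTRA, 65.9%, 51.7% and 56.8% in CGG_siTRA, 65.4%, 75.0% and 65.0% in CGG, and 69.3%, 68.8% and 68.2% in CTL. By this measure GFP_TRA and siTRA were both below CTL without overlap, and GFP_TRA overlapped siTRA. For siTRA this depended on the bin chosen for comparison. Set against the bin at the other end of the event, 100435848 to 100436064, siTRA overlapped CTL. There siTRA library b had 145.7 normalised counts in the exon bin and 134.0 in the other, and CTL library a had 171.8 and 165.3. The exon bin was below that other bin in every GFP_TRA library and above it in every CTL library. Of the other events of lowest p in CGG_TRA against CGG, the cassette exon at chr10:101781854-101782478 had a difference of 0.00282 and a p of 0.00469 in the authors' deposited table, which was 0.231 after the same adjustment. The remaining 3 of the 5 events, in the same gene and in those at chr5:171387116 and chr15:75023555, had unadjusted p-values of 0.281 to 0.446 in the authors' deposited table.

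Bin use in the authors' DEXSeq tables covered 90 of the genes. In siTRA against CTL, 27 of 1239 bins in 13 genes passed an adjusted p of 0.05 in the authors' deposited table, 18 with higher and 9 with lower use in siTRA, where 1.83% of all bins did; 9 of the 27 were the TRA2A bins above. At 0.01, 18 bins passed (background 0.944%). In CGG against CTL, 29 of 1303 bins in 14 genes passed, 10 with higher and 19 with lower use in CGG, where 2% of all bins did, and 19 passed at 0.01 (background 1.13%).

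The following bins were chosen for their low p. The bin 26170481 to 26170574 of the gene at chr1:26169871-26170873 averaged 53.8 normalised counts in siTRA and 18.5 in CTL, and its use was higher in siTRA by 1.55 on the log2 scale (adjusted p = 1.22e-08 in the authors' deposited table). The bin 154486103 to 154486227 of the chrX gene starting at 154483717 averaged 37.5 in siTRA and 11.4 in CTL, with a log2 use of 1.80 (adjusted p = 3.69e-07 in the authors' deposited table). In CGG against CTL the lowest p was that of the bin 26473818 to 26474084 of the gene starting at chr1:26472450, with means of 100 in CGG and 187 in CTL and a log2 use of -0.95 (adjusted p = 3.20e-15 in the authors' deposited table). That gene held 9 of the 29 bins.

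The same rule applied to each group in turn gave 143 genes for GFP_TRA, 167 for siTRA, 32 for CGG_siTRA, 77 for CGG and 846 for CTL. With TMM scaling the counts were 68, 140, 82, 66 and 748, so that GFP_TRA had more such genes than CGG_siTRA with the authors' scaling and fewer with TMM. Genes lower in GFP_TRA than in every other group by the same factor numbered 298, or 387 with TMM scaling.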

How the data were processed

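Per the labels' protocols, total RNA was depleted of ribosomal RNA and sequenced from TruSeq libraries. The submitters' processing notes list cutadapt 1.14, STAR 2.5.2, DESeq2 and the human build GRCh38.p10, with no role or order; reads of a monkey line that differ from the human sequence can be lost against it. The authors deposited a signal per exon bin for 15 libraries, which is the read count divided by 1 factor per library. Their DEXSeq tables hold raw counts, p-values, adjusted p-values and log2 changes of bin use, per the file headers, and their EventPointer tables hold p-values, a score and a change in the fraction spliced in, per the file headers. What software counted the reads is not given in the sources used here. A read over several bins is counted in each.

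Multiplied back by its library's factor, each value (100%) came out whole to within 0.1 read, and 6311190 of 6311190 values equalled the deposited counts. Reads were summed per gene or group of overlapping genes. The quasi-likelihood test of edgeR 4.0.16 (R 4.3.3), with TMM factors and 5 group means over all 15 libraries, was run on 17526 genes and groups that reached 10 normalised counts in 3 or more libraries, with Benjamini-Hochberg adjustment over all of them. The test was tested on simulated data with 200 changed genes. Strand use in counting is not stated, so reads of overlapping antisense genes, and of near-identical copies among single-bin genes, are uncertain. Intervals are not given; the errors cover the spread between 3 libraries.

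The genes, lists and tests were chosen with earlier results of these data known. Genes set to be named were TRA2A, the 25 largest ratios, the 10 highest GFP_TRA means and 3 genes on each side of the threshold. Called genes with a log2 change of 1 or more under knockdown, and the genes of the 5 events of lowest p, were also set. Of the 25 largest ratios and the 10 highest means, only some are described singly, and the others enter counts or ranges. The 7 genes that fell in both knockdown comparisons, the chromosome 1 interval, the TRA2A bins and the bins described were chosen after their values were seen. The gene lists and marker genes could not be applied, because the files pair no ID with a name. Alternatives were DESeq2 1.42.0, limma 3.58.1 on log2 values with pseudocounts of 1 and 10, the authors' scaling, no filter, 2 groups alone, the highest bin, and leaving out each library.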

Additional observations from a re-analysis of the deposited data

Results flagged for a closer look

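The effect of knockdown with the repeats (CGG_siTRA over CGG) was compared with that without them (siTRA over CTL) by an interaction term in the edgeR fit, a test added after the data were examined. It passed an adjusted p of 0.05 in 3 of the 143 genes, against 16.4% of the 17526 genes and groups tested. All 3 are single-bin genes without a position. At rank 4 the difference of the log2 changes was -1.31 (SE 0.38, edgeR adjusted p = 0.0266), at rank 108 it was -0.97 (SE 0.29, edgeR adjusted p = 0.0285), and at rank 128 it was -1.49 (SE 0.50, edgeR adjusted p = 0.0490). In each the 3 CGG_siTRA libraries were below the 3 CGG libraries, while siTRA overlapped CTL.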

How the results depend on the processing

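The number of genes meeting the rule fell to 14 at a ratio of 1.5, to 68 with TMM scaling and to 84 when every GFP_TRA library also had to be above every other; leaving out 1 library gave 123 to 204. Without GFP_TRA library b, 94 of the 143 genes still met the rule among 156. In siTRA against CTL, 17 genes were called, 11 among those kept with TMM scaling (an alternative chosen after seeing the data), and 14 to 22 with 1 library left out. In CGG_siTRA against CGG, 12 were called, 19 and 20 with limma at pseudocounts of 1 and 10, and 7 to 12 with 1 library left out, the lowest without CGG library a or c or CGG_siTRA library b. In CGG against CTL, 4 were called, 8 with DESeq2, 2 with the highest bin, 10 with no filter, 26 with only the groups compared, 2 among those kept with TMM scaling, and 2 to 13 with 1 library left out: 2 without CTL library b, 7 without siTRA library a and 13 without siTRA library b. In CGG_siTRA against siTRA, 0 were called, 3 with DESeq2, 9 with no filter, and 0 to 1 with 1 library left out (1 without siTRA library a). Events gave 2 and 1 at an unadjusted p, and CGG against CTL gave 19 bins at 0.01. The share of all genes called is given above for only some of the alternatives. For the others, a changed count of genes cannot be told from a general change in calls. The causes of the changed counts were not tested. Of 33 called values of single genes, 16 lost their call under at least 1 alternative and 0 changed sign. No paired analysis was possible because nothing links the library numbers of the count columns with the replicate numbers in the titles, so the planned replicate block was not run.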
